A study of Homo sapiens with 6 samples.

Results

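Transcripts of the p53 network were followed in human cells depleted of ACSS2, the nuclear and cytosolic enzyme that makes acetyl-CoA from acetate. The genes are MDM2 and MDM4, which restrain p53, and 7 genes that p53 is known to activate directly: AEN, FAS, TP53INP1, ZMAT3, BTG2, SESN1 and GDF15. Each was taken by its exact gene name from the deposited table, so that 9 of its 58735 rows are described, and all 9 had enough reads to be tested. RNA sequencing covered 6 libraries of cells labelled BE(2)-C, a line derived from a neuroblastoma. In the NS group (n = 3) the cells had been infected with lentivirus that carries a non-silencing hairpin RNA and are labelled wildtype. In the shACSS2 group (n = 3) the lentivirus carries a hairpin against ACSS2 and the cells are labelled as deficient in ACSS2. Lines of both groups were selected with puromycin. The labels do not say if a line is 1 clone or a pool, nor if separate cultures were used for the libraries, so p-values measure the spread between these libraries, which may be technical. The sample titles write siACSS2 and the treatment text in 1 place shNgBR, and the groups follow the titles.

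p53 is a transcription factor that stops the cell cycle or kills the cell after DNA damage and other stress. MDM2 is the ubiquitin ligase that marks p53 for destruction, and MDM4 is its relative that lacks strong ligase activity of its own and masks the activation domain of p53. Since MDM2 is itself a p53 target, the pair form a feedback loop. p53 is also regulated by acetylation, a modification that uses acetyl-CoA.

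Library totals ran from 16617885 to 20831599 counts. ACSS2 itself fell from 20.5 ± 0.324 to 5.32 ± 0.762 CPM (SD, n = 3 each), where CPM is a count scaled to library size with a correction for composition, and every NS library lay above every shACSS2 library. Of 14 marker genes of adrenergic neuroblastoma, 2 reached a mean of 5 CPM, GATA3 and ISL1, and PHOX2A, TH and TFAP2B had 0 counts in all libraries, which allows up to 0.0277 CPM (3 counts over all libraries, counting error only). Of 10 embryonic kidney markers 8 reached a mean of 5 CPM, and of 6 blood cell markers 0 did. Of 8 mesenchymal neuroblastoma markers 5 reached a mean of 5 CPM, with a summed level of 656 to 698 CPM in NS and 538 to 590 CPM in shACSS2, lower in every shACSS2 library; the part of this difference in the results was not tested. The summed level of the adrenergic markers was 40.8 to 45.9 CPM in NS and 41.2 to 48.8 CPM in shACSS2. That of the kidney markers was 207 to 226 and 178 to 206 CPM. The sums do not show single genes. By the edgeR test described below, 1 of 6 tested adrenergic markers was called higher and 3 lower. Of 8 tested mesenchymal markers 0 were called higher and 3 lower, and of 8 tested kidney markers 0 and 1. These are 66.7%, 37.5% and 12.5% called, against 17.1% of all tested genes. The 3 adrenergic markers called lower were scarce, with means of 1.75, 1.92 and 2.16 CPM in NS and 0.787, 0.589 and 1.06 CPM in shACSS2. ISL1, the 1 called higher, had means of 13.0 and 18.5 CPM. The libraries are therefore called by their group labels only. shACSS2 replicate 1 stood apart: across genes its deviation from its group mean had a Spearman coefficient of −0.598 with GC content. In NS replicates 1, 2 and 3 the coefficients were 0.112, −0.089 and 0.005. In shACSS2 replicates 2 and 3 they were 0.472 and 0.386, but deviations within a group sum to 0 for each gene. A trend in 1 library thus pushes the others of its group the opposite way. In bulk RNA, fewer cells that express a gene and less RNA per cell cannot be told apart.

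ACSS2 depletion went with higher AEN and FAS, and with no member called lower. Among the 9 genes, 2 rose, 0 fell and 7 missed the threshold (adjusted p under 0.05 by the quasi-likelihood test of edgeR). That is 22.2% of the members, where 17.1% of all 16210 tested genes were called in either direction, 7.48% as higher and 9.64% as lower in shACSS2, so the share lies near the background. At an unadjusted edgeR p under 0.05 there were 5 higher and 2 lower members, or 7 of 9, where 32.7% of all genes met that limit, and DESeq2 called 2 higher and 0 lower. The CPM values of the groups did not overlap for 6 of 9 members, and for 36.3% of all genes. The median log2 ratio of the members was 0.29, against 0.00 over all genes, where the log2 ratio is that of shACSS2 to NS in the edgeR fit.

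**Figure D1:**
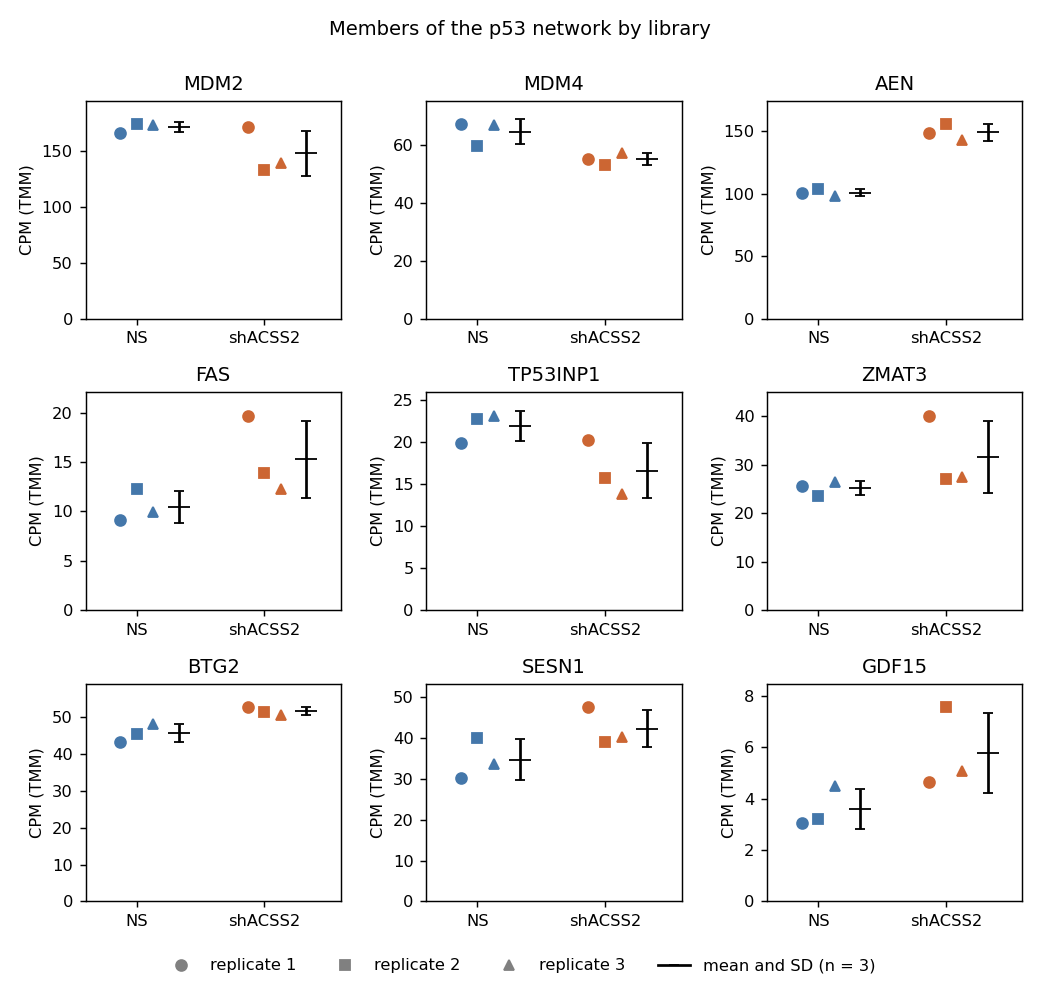
CPM after composition scaling (y axis, from 0) of each member in the NS and shACSS2 libraries, with a symbol per replicate and the mean and SD (n = 3) beside them. The AEN values of shACSS2 lie well above those of NS, while in FAS, ZMAT3, MDM2 and TP53INP1 shACSS2 replicate 1 lies higher than shACSS2 replicates 2 and 3.

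Of the regulators of p53, MDM2 had the highest mean CPM of the members in NS and did not pass the test. In shACSS2 MDM2 and AEN had means of 148 and 149 CPM. MDM2 (ENSG00000135679, GENCODE v29 on GRCh38, chromosome 12, 68808176 to 68850686, plus strand) stood at 166.6, 174.1 and 173.5 CPM in NS and at 171.2, 133.3 and 139.4 CPM in shACSS2. shACSS2 replicate 1 lay within the NS range and replicates 2 and 3 lay below it. The log2 ratio was −0.21 (SE 0.104; edgeR adjusted p = 0.169), with a 95% interval from −0.43 to 0.01. Without shACSS2 replicate 1 MDM2 was called lower, at a log2 ratio of −0.33 (edgeR adjusted p = 0.00338). With a correction for GC content and length it had one of −0.05 (edgeR adjusted p = 0.632), and the adjusted p ran from 0.00338 to 0.635 over the 14 alternatives. The tested genes with the profile most like that of MDM2 over the 6 libraries were TOP2A, KCTD12 and TNKS2, at a root mean square difference of 0.0269, 0.0284 and 0.034 in centred log2 CPM.

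MDM4 (chromosome 1, 204516379 to 204558120, plus strand) had 67.18, 59.70 and 66.94 CPM in NS and 55.11, 53.08 and 57.29 CPM in shACSS2. All shACSS2 libraries lay below all NS libraries, with a gap of less than the SD of NS. The log2 ratio was −0.23 (SE 0.0985; edgeR adjusted p = 0.119; 95% interval −0.44 to −0.02), and none of the 14 alternatives brought a call (edgeR adjusted p from 0.0515 to 0.372). With the GC content and length correction the log2 ratio was −0.10.

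The members that act in cell death were AEN, FAS and TP53INP1. AEN, a nuclease that digests DNA and RNA in apoptosis (chromosome 15, 88621296 to 88632282, plus strand), had 100.4, 104.1 and 98.57 CPM in NS and 148.8, 155.8 and 142.8 CPM in shACSS2. The groups were far apart, with little spread within either. AEN rose 1.48-fold (log2 ratio 0.56, SE 0.0909; edgeR adjusted p = 0.000936). The call held in all 14 alternatives, at log2 ratios of 0.49 to 0.61 (adjusted p from 2.97e-07 with DESeq2 to 0.0135 with edgeR). Permuting the libraries of AEN gave an exact p of 0.1 (two-sided, on log2 CPM), below which no arrangement of 3 and 3 libraries can go.

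FAS, the death receptor of the cell surface (chromosome 10, 88990582 to 89015785, plus strand), was scarce, counted 161, 232 and 216 times in NS and 317, 227 and 219 times in shACSS2. On the CPM scale these are 9.166, 12.26 and 9.959 CPM in NS and 19.74, 13.88 and 12.26 CPM in shACSS2. The lowest shACSS2 library and the highest NS library were at nearly the same value, and shACSS2 replicate 1 lay far above the rest. FAS rose 1.46-fold (log2 ratio 0.55, SE 0.177; edgeR adjusted p = 0.0453), close to the limit of the call. Without shACSS2 replicate 1 the log2 ratio was 0.32 and the call ended (edgeR adjusted p = 0.144), as it did without NS replicate 1 or 3 (0.46 and 0.51; edgeR adjusted p = 0.187 and 0.152) and with library totals in place of composition scaling (0.47; edgeR adjusted p = 0.0694). The adjusted p ran from 0.00769 to 0.187 over the 14 alternatives. On the opposite strand ACTA2, smooth muscle actin, overlaps 380 bases or 8.94% of the FAS exons, and was counted 39, 62 and 81 times in NS and 74, 70 and 65 times in shACSS2, so reads of this stretch can belong to either gene.

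TP53INP1, a stress protein of the nucleus and of autophagy (chromosome 8, 94925972 to 94949411, minus strand), had 19.87, 22.82 and 23.19 CPM in NS and 20.24, 15.78 and 13.83 CPM in shACSS2. Here too shACSS2 replicate 1 lay within the NS range and replicates 2 and 3 below it. Its log2 ratio was −0.41 (SE 0.144; edgeR adjusted p = 0.0626; 95% interval −0.71 to −0.10). TP53INP1 was called lower without shACSS2 replicate 1, at −0.57 (edgeR adjusted p = 0.00355), and in 6 of the 14 alternatives in all (adjusted p from 0.00355 to 0.237).

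ZMAT3, BTG2, SESN1 and GDF15 act in growth arrest, RNA control and stress signalling, and none of the 4 passed the test. ZMAT3, a zinc finger protein that binds RNA (chromosome 3, 179017223 to 179072279, minus strand), had 25.51, 23.51 and 26.51 CPM in NS and 40.16, 27.09 and 27.55 CPM in shACSS2. Most of the difference came from shACSS2 replicate 1. Its log2 ratio was 0.33 (SE 0.143; edgeR adjusted p = 0.125; 95% interval 0.02 to 0.63), and 0.12 without that library (edgeR adjusted p = 0.424). With the GC content and length correction ZMAT3 was called higher, at 0.43 (edgeR adjusted p = 0.00623; 0.0044 to 0.424 over the 14 alternatives).

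BTG2, an antiproliferative protein that recruits the CCR4-NOT deadenylase (chromosome 1, 203305491 to 203309602, plus strand), had 43.32, 45.54 and 48.27 CPM in NS and 52.86, 51.49 and 50.63 CPM in shACSS2. The groups did not overlap, but lay close together. Its log2 ratio was 0.18 (SE 0.0985; edgeR adjusted p = 0.232; 95% interval −0.03 to 0.38), and no alternative brought a call (edgeR adjusted p from 0.165 to 0.551). With library totals it was 0.10.

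SESN1, a sestrin that restrains mTORC1 when leucine is short (chromosome 6, 108986437 to 109094819, minus strand), had 30.29, 40.10 and 33.70 CPM in NS and 47.63, 39.08 and 40.27 CPM in shACSS2. NS replicate 2 lay among the shACSS2 libraries. Its log2 ratio was 0.29 (SE 0.124; edgeR adjusted p = 0.12; 95% interval 0.02 to 0.55). It was 0.19 without shACSS2 replicate 1 and without NS replicate 1 (edgeR adjusted p = 0.216 and 0.433), and the GC content and length correction brought a call (0.28; edgeR adjusted p = 0.0393; 0.0339 to 0.433 over the 14 alternatives).

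GDF15, a secreted stress cytokine of the TGF-beta family (chromosome 19, 18374731 to 18389176, plus strand), was the least abundant member, counted 54, 61 and 98 times in NS and 75, 124 and 91 times in shACSS2. These are 3.074, 3.223 and 4.518 CPM in NS and 4.670, 7.583 and 5.096 CPM in shACSS2, so that the groups barely failed to overlap. GDF15 had the largest estimate and the widest interval of the members, with a log2 ratio of 0.67 (SE 0.23; edgeR adjusted p = 0.0555; 95% interval 0.18 to 1.16). It was called higher in 5 of the 14 alternatives, at adjusted p as low as 0.0223 (without shACSS2 replicate 1, where the log2 ratio was 0.80) and as high as 0.25 (without shACSS2 replicate 2, at 0.43).

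**Figure D2:**
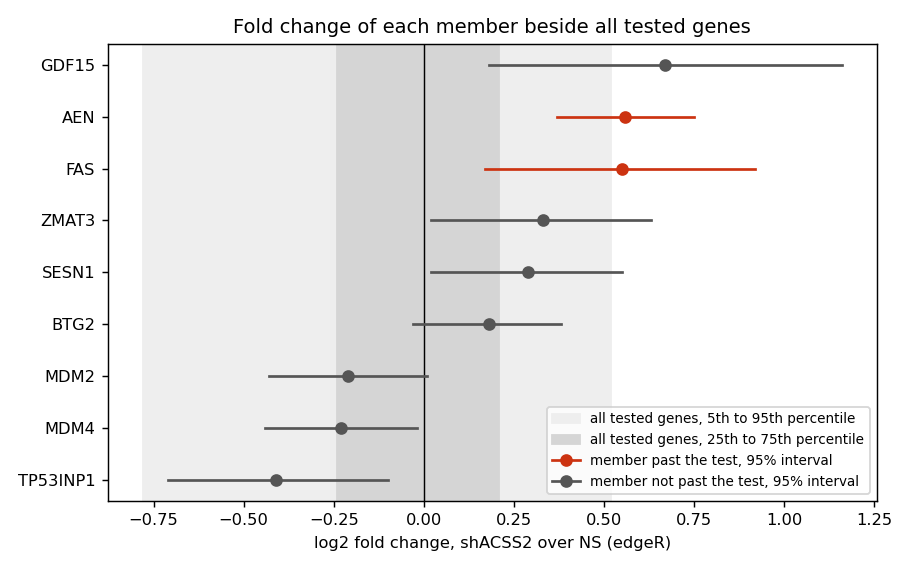
Log2 ratio of shACSS2 over NS (x axis) for each member with its 95% interval from the edgeR fit, red where the adjusted p was under 0.05. Shaded bands give the middle of all 16210 tested genes, from −0.24 to 0.21 (25th to 75th percentile) and from −0.78 to 0.52 (5th to 95th). AEN, FAS and GDF15 lie above the outer band, and TP53INP1 is the lowest member at −0.41.

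The position of shACSS2 replicate 1 moved with the GC content of the members. In FAS, ZMAT3 and TP53INP1, with 39.1, 39.5 and 39.6% GC in their longest transcript, that library exceeded the mean of replicates 2 and 3 by 0.60, 0.56 and 0.45 on the log2 scale. MDM2 (41.9% GC) and SESN1 (43.4% GC) had differences of 0.33 and 0.26. AEN and BTG2, at 50.8 and 50.3% GC, had differences of 0.00 and 0.05, and GDF15, at 62.9% GC, one of −0.41. MDM4, at 42.4% GC, had one of 0.00. Over all tested genes the median of this difference was 0.29 in the bin around 38.2% GC and −0.32 in the bin around 62.0% GC. With the GC content and length correction the log2 ratio of shACSS2 to NS was 0.61 for AEN, 0.52 for FAS (edgeR adjusted p = 0.0109; 0.00769 to 0.187 over its alternatives), 0.15 for BTG2, 0.69 for GDF15 and −0.39 for TP53INP1, and the values of MDM2, MDM4, ZMAT3 and SESN1 stand above. The part of GC content in the differences between the groups was not tested in another way.

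**Figure D3:**
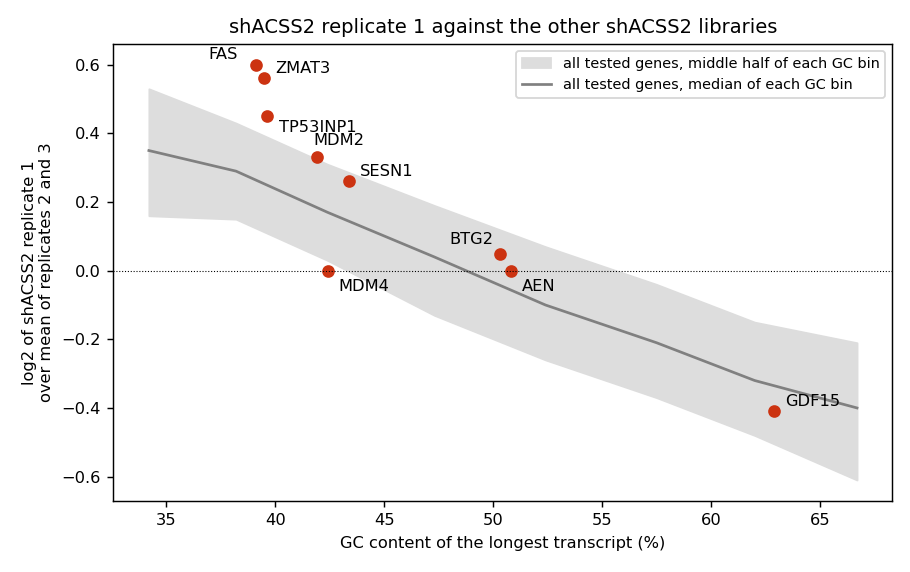
GC content of the longest transcript (x axis, percent) against the log2 ratio of shACSS2 replicate 1 to the mean of shACSS2 replicates 2 and 3 (y axis). The grey line and band are the median and the 25th to 75th percentile of all tested genes in each GC bin, and red points are the members, which run from 0.60 for FAS down to −0.41 for GDF15.

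The order of the members in NS was set on a per-length scale, as CPM per kilobase of annotated exons. Exons of all transcripts of a gene were merged, so that shared bases count once. MDM2 has 13.3 kilobases by this measure and BTG2 2.76. These cells may not express all of the annotated bases, so the order depends on the annotation. AEN and BTG2 led at 16.8 ± 0.471 and 16.6 ± 0.899 CPM per kilobase (SD, n = 3 each), and their library ranges overlapped. MDM2 followed at 12.9 ± 0.316, above the rest. SESN1 at 6.78 ± 0.973 and MDM4 at 5.87 ± 0.386 overlapped each other, and TP53INP1 stood alone at 3.87 ± 0.321. ZMAT3 at 2.61 ± 0.158, FAS at 2.46 ± 0.378 and GDF15 at 1.73 ± 0.381 CPM per kilobase closed the order, with library ranges that overlapped from each to the next. In shACSS2 the level of AEN was 24.8 ± 1.08 and that of BTG2 18.7 ± 0.409 CPM per kilobase.

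The sequences near the annotated starts were searched for p53 sites. Windows from 250 bases before to 50 after each RefSeq start (GRCh38.p14) were given for 8 of the 9 members, 16 windows in all, and TP53INP1 had none in the table. The p53 response element of 20 bases was searched, a motif that is its own reverse complement, so that both strands are covered. A match with at most 3 of 20 letters off the site was present in 6 of the 16 windows, in 5 genes, and in 5.20% of all 35116 windows. MDM2 counts with 2 windows that share the same match. Most members were listed as known p53 targets, so a higher share than in all windows could follow from that choice and is a description. The best matches of these 5 genes are shown because they are the closest to the element among the members. Capitals mark the letters that fit the site and lower case those that do not.

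MDM2, chr12:68808923-68808942, plus strand, in an intron: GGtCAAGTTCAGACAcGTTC
FAS, chr10:88991309-88991328, plus strand, in an exon of at least 1 annotated transcript: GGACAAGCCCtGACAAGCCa
AEN, chr15:88621306-88621325, plus strand, in an exon of at least 1 annotated transcript: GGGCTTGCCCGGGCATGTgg
SESN1, chr6:109009018-109009037, minus strand, in an intron: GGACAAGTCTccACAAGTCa
GDF15, chr19:18386186-18386205, plus strand, in an exon of at least 1 annotated transcript: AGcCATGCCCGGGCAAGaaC

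MDM2, FAS and AEN differ from the site at 2 letters each, and SESN1 and GDF15 at 3 each. The closest matches in BTG2 and ZMAT3 were off by 4 letters and that in MDM4 by 5. The genes with a match within 3 letters included both members that rose, AEN and FAS, and 3 that did not pass the test, among them MDM2 with an estimate below 0. Binding of p53 was not measured.

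A further sequence feature concerned the 3′ ends. Genes with ATGCTCA or TGCTCAA, overlapping motifs searched on the sense strand of the longest annotated 3′ UTR, had a median log2 ratio of −0.16, against 0.05 in genes without them. The motifs were picked earlier from these same ratios, so this is a description. Of the 9 members 2 hold it (22.2%), against 18.0% of the 13262 tested genes whose 3′ UTR was searched. The stretches are shown because they are the members' only matches, with the match in capitals.

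ZMAT3, from base 289 of a 3′ UTR of 7794 bases: actttttatctTGCTCAAgttctggtca
BTG2, from base 1640 of a 3′ UTR of 2164 bases: gatttctaaacTGCTCAAttttgactca

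Neither ZMAT3 nor BTG2 passed the test, and both had estimates above 0 (0.33 and 0.18). MDM2, MDM4 and TP53INP1, the members with estimates below 0, held no match in 3′ UTRs of 10837, 9419 and 4773 bases. Among genes with a searched 3′ UTR, at least 1 match was held by 43.9% of the 1312 that fell and by 6.75% of the 1111 that rose. The median 3′ UTR was 2230 bases long in the former and 938 in the latter, and the part of length in these shares was not tested.

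Among other direct p53 targets, more were called higher than lower. Of 55 listed genes 51 were tested, and 12 rose, 2 fell and 37 missed the threshold, or 23.5% higher where 7.48% of all genes were, and 3.92% lower where 9.64% were. The median log2 ratio was 0.20, against 0.00 over all genes. This list, like the members and the other lists, was chosen with earlier results of these data known, so its share is a description. PMAIP1, which encodes the BH3-only killer protein NOXA, rose from a mean CPM of 129 ± 11.7 to one of 211 ± 38.1 (± SD, n = 3 in each group; log2 ratio 0.70, SE 0.121; edgeR adjusted p = 0.00141). TNFRSF10D, a decoy receptor for TRAIL, rose by 0.71 (SE 0.164), TP53I3, a quinone oxidoreductase, by 0.73 (SE 0.189) and SFN, the 14-3-3 sigma protein, by 1.14 (SE 0.338), from 0.786 ± 0.0895 to 1.75 ± 0.296 CPM. The others that rose were PHLDA3, GADD45A, SUSD6, TRIAP1, CMBL, PLK2, SESN2 and TRIM22, at log2 ratios from 0.32 for SESN2 and CMBL to 1.71 for TRIM22, whose mean was under 1 CPM in both groups (0.232 and 0.801). DDB2, a damage sensor of nucleotide excision repair, fell by 0.45 on the log2 scale (SE 0.129) and CDIP1, a pro-apoptotic membrane protein, by 0.39 (SE 0.105). SESN2 also counts in the sestrin and stress response lists. CDKN1A, the cell cycle inhibitor p21, is named here outside the rule and after its values were seen. It had a log2 ratio of −0.31 (SE 0.118; edgeR adjusted p = 0.0766; 0.0113 to 0.224 over its 14 alternatives), from 46.2 ± 2.56 to 37.1 ± 5.55 CPM. The count of higher genes was 7 with library totals (5 lower) and 19 with the GC content and length correction. It was 4 and 5 when NS replicate 1 or 3 was left out, and 6 when shACSS2 replicate 2 or 3 was. With these omissions the higher calls over all genes were 310, 363, 801 and 827, against 1213 with all 6 libraries. Leaving out 1 library in turn kept the call of TP53I3 in 3 of 6 fits (lost when NS replicate 1 or 3 or shACSS2 replicate 2 was the one omitted) and that of SFN in 1 (without shACSS2 replicate 1). Over all genes, 43.7% of the calls were higher, against 25.8% with library totals and 61.5% with the GC content and length correction.

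**Figure D4:**
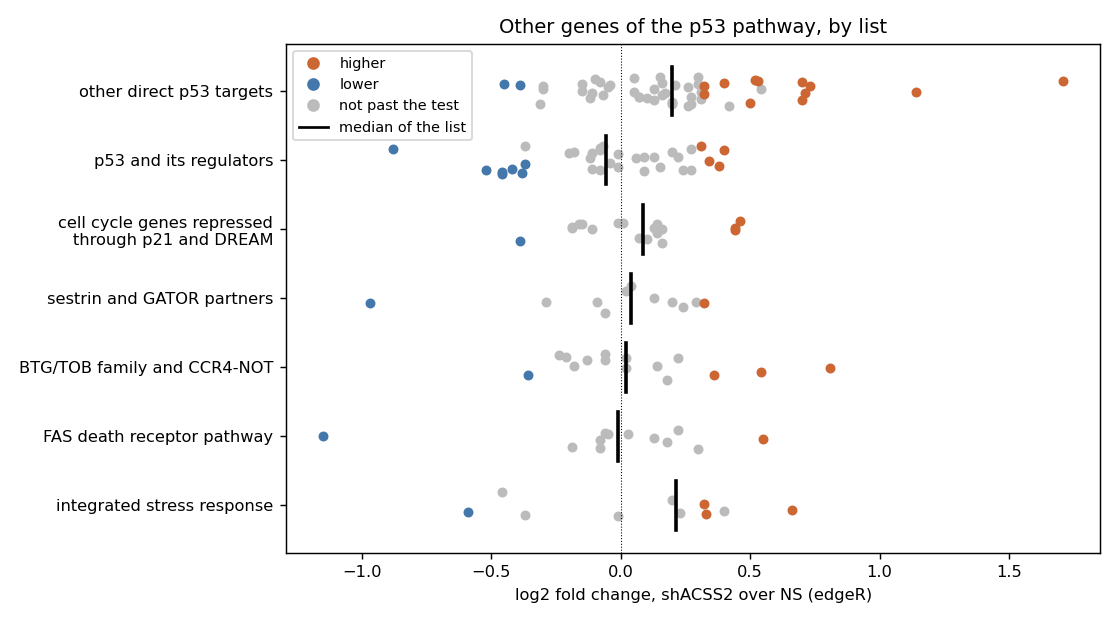
Log2 ratio of shACSS2 over NS (x axis) for each tested gene of 7 lists of the p53 pathway (y axis, points spread vertically at random), orange where called higher, blue where called lower and grey where the test was not passed. Black bars are list medians, which run from −0.06 for p53 and its regulators to 0.21 for the integrated stress response.

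Genes that regulate p53 or MDM2 had calls both ways, and which way had more depended on the setting. Of 34 tested members of this list 4 rose, 7 fell and 23 missed the threshold (20.6% lower, where 9.64% of all genes were), with a median of −0.06. HIPK2, a kinase that phosphorylates p53, fell from a mean CPM of 134 ± 11.2 to one of 72.4 ± 10.1 (± SD, n = 3 in each group; log2 ratio −0.88, SE 0.112; edgeR adjusted p = 0.000133). EP300, the acetyltransferase p300 that uses acetyl-CoA to modify histones and p53, fell from 151 ± 13.3 to 105 ± 1.07 CPM (log2 ratio −0.52, SE 0.0958). TP53BP1, a DNA damage adaptor that binds p53, fell by 0.46 on the log2 scale (SE 0.107), a call that ended without NS replicate 1 (edgeR adjusted p = 0.0684; from 0.00196 with DESeq2 to 0.0684 over its alternatives). The HIPK2 and EP300 calls held in all 14 alternatives. With the GC content and length correction 8 genes of the list were called higher and 5 lower, at a median of 0.03, and without NS replicate 2 there were 6 each way. The list's count of called genes was 11. It came to 3 or 7 when NS replicate 1 or 3 was omitted, and to 6 when shACSS2 replicate 2 was. Calls over all genes came to 1018, 1151 and 1949 in these fits, against 2776 with all 6 libraries.

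The families of single members were mixed. Among sestrins and their GATOR partners 1 rose, 1 fell and 9 missed the threshold, at a median of 0.04. That is 18.2% called, near the 17.1% of all tested genes. SESN3, a relative of SESN1, fell from 78.51, 68.21 and 78.29 CPM in NS to 44.15, 35.16 and 35.28 CPM in shACSS2 (log2 ratio −0.97, SE 0.115; edgeR adjusted p = 7.36e-05), with the groups far apart. SESN2 rose by 0.32 (SE 0.103; edgeR adjusted p = 0.0414), a call that held in 1 of the 6 omissions of a library, and the difference between the sestrins was not tested. With the GC content and length correction 6 genes of this list were called, and with library totals 1.

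In the BTG/TOB family with the CCR4-NOT deadenylase, 3 of 15 tested genes rose, 1 fell and 11 missed the threshold. The median was 0.02, and 26.7% were called, against 17.1% of all tested genes. BTG3, a relative of BTG2, rose from 34.9 ± 2.5 to 61.2 ± 10.4 CPM (log2 ratio 0.81, SE 0.124; edgeR adjusted p = 0.000599), and TOB1, another antiproliferative protein of the family, rose by 0.54 (SE 0.104; edgeR adjusted p = 0.0032). Both calls held in all 14 alternatives. The deadenylase subunits CNOT10 and CNOT9 had log2 ratios of 0.36 (SE 0.0941) and −0.36 (SE 0.092), calls that both ended without NS replicate 1 (edgeR adjusted p = 0.114 and 0.0832). That of CNOT10 also ended without NS replicate 3 and that of CNOT9 without shACSS2 replicate 2 or 3, and over the alternatives the edgeR or DESeq2 adjusted p ran from 0.00143 to 0.114 and from 0.00166 to 0.0832. Without NS replicate 1 the list had 2 calls.

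Of the FAS pathway 12 genes were tested, at a median of −0.01. FAS was the 1 that rose, 1 gene not reported here fell and 10 missed the threshold. That is 16.7% called, near the 17.1% of all tested genes. The ligand FASLG had 0 counts in every library, and FADD and CASP8, the adaptor and the initiator caspase of the receptor, had log2 ratios of 0.03 (SE 0.157) and 0.18 (SE 0.146), neither past the test.

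Of 10 integrated stress response genes, a pathway known to raise GDF15 as well, 3 rose, 1 fell and 6 missed the threshold. The median was 0.21, and 40.0% were called, against 17.1% of all tested genes. ATF3, a stress transcription factor, rose from 70.5 ± 4.62 to 112 ± 22.1 CPM (log2 ratio 0.66, SE 0.127; edgeR adjusted p = 0.00303), and DDIT4, an mTORC1 inhibitor, fell by 0.59 on the log2 scale (SE 0.126; edgeR adjusted p = 0.00592). TRIB3, a pseudokinase, rose by 0.33 (SE 0.108; edgeR adjusted p = 0.0447), a call that held in 1 of the 6 omissions of a library. The cell cycle list holds 18 genes that p53 is known to lower through p21 and the DREAM repressor. Of these 3 rose, 1 fell and 14 missed the threshold, at a median of 0.09. That is 22.2% called, against 17.1% of all tested genes. BIRC5 (survivin), CENPA (the centromeric histone) and E2F1 had log2 ratios of 0.44 (SE 0.109), 0.46 (SE 0.144) and 0.44 (SE 0.118), and FOXM1, a mitotic transcription factor, one of −0.39 (SE 0.102). Each of these 4 calls ended without NS replicate 1 and without NS replicate 3 (edgeR adjusted p from 0.0591 to 0.201). The count of called genes in the list was 0 in either fit. Calls over all genes came to 1018 and 1151 in these fits, against 2776 with all 6 libraries. Without shACSS2 replicate 2 the list had 2 calls.

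**Figure D5:**
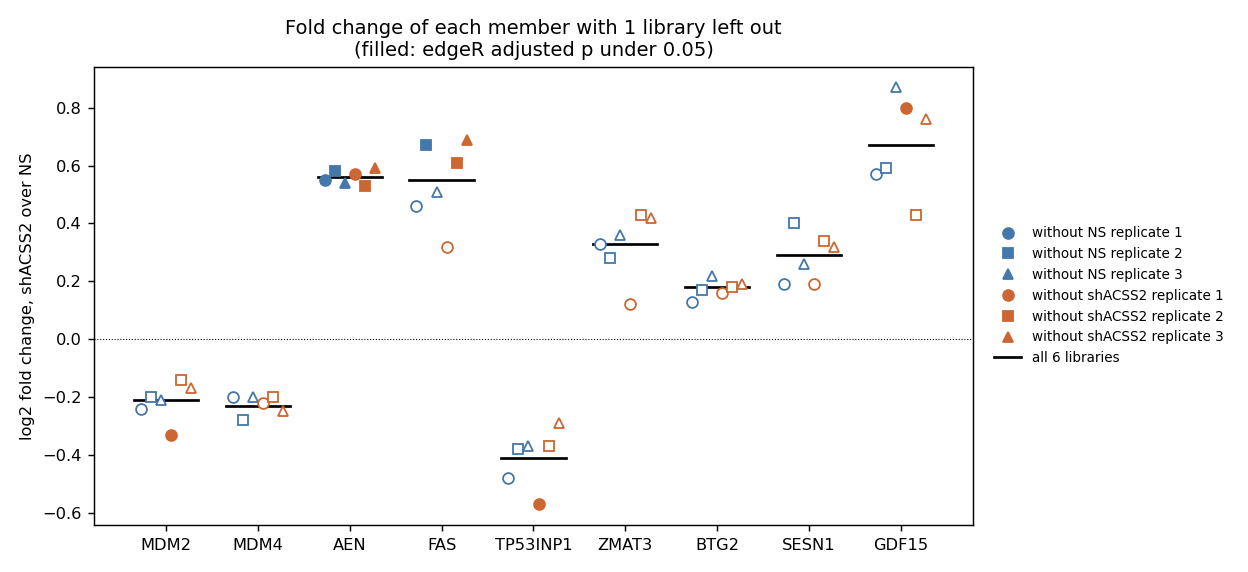
Log2 ratio of shACSS2 over NS (y axis) of each member with all 6 libraries (black line) and with 1 library left out (symbols, filled where the edgeR adjusted p was under 0.05). AEN stays between 0.53 and 0.59 and is called each time, while FAS ranges from 0.32 to 0.69 and MDM2 from −0.33 to −0.14.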

How the data were processed

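The authors deposited 1 table of raw read counts per gene (whole numbers, not normalised) for 6 RNA-seq libraries. Per the submitters' processing notes, fastp, HISAT2 2.0.5, featureCounts 1.5.0-p3, DESeq2 (given there as 4.3.1) and hg19 are named. Of strand and multi-mapping settings nothing is given in the sources used here. All 58735 identifiers were found in GENCODE v29 (GRCh38), which gave positions, lengths and GC content, so the build of the alignment is uncertain.

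Counts were tested with edgeR 4.0.16 (R 4.3.3): TMM scaling, default expression filter, robust quasi-likelihood F test on group alone, Benjamini-Hochberg adjustment over 16210 genes at 0.05. The SE was taken as the absolute log2 ratio divided by √F. The fit was tested on simulated data drawn without any effect of GC content. That test therefore does not cover the GC trend of shACSS2 replicate 1. "Rose" and "fell" mean past this test.

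Alternatives were RLE scaling, library totals, no filter, at least 1 CPM in 3 libraries, DESeq2 1.42.0, a replicate block, smooth offsets on GC content and exonic length (both also together), and omission of each library. That makes 14 alternatives. Counts were also taken at an adjusted p of 0.01.

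Members and lists were chosen with earlier results of these data known. Named are ACSS2 and, per list, up to 4 called genes, those with the largest change among genes that average 1 CPM or more. Some genes of the lists are not reported here. Lists are described by counts and medians only. 3′ UTR matches used the longest annotated form, which these cells may not express. Figures used matplotlib 3.10.9.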

Additional observations from a re-analysis of the deposited data

How the results depend on the processing

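Over the 9 members and 14 alternatives, 0 estimates changed direction, 106 kept their side of the threshold, 4 lost the call and 16 gained it. Of 23 other named genes past the test, 12 stayed past it under each omission of 1 library. The count of members called was 4 without a count filter, 4 with the replicate block, 6 with the GC content and length correction, 6 with both, and 1 at an adjusted p of 0.01. Of all genes 9.81% were called without a filter, 18.0% with the block, 28.4% with the correction and 29.6% with both, against 17.1%. Over all genes the counts were 4597 with the correction, 4790 with the block and the correction, and 1010 at an adjusted p of 0.01, and over other direct p53 targets 22 and 25 with the correction without and with the block. For sestrins with GATOR partners they were 1 with library totals and 6 with the correction (6 with the block too), for the FAS pathway 1 and for the integrated stress response 2 with library totals. FAS had a log2 ratio of 0.47 with library totals, where its call ended. GDF15 was called at 0.67 without a filter, 0.66 with the block, 0.69 with the correction and 0.68 with both. TP53INP1 was called at −0.48 with library totals, −0.40 without a filter, −0.42 with the block, −0.39 with the correction and −0.39 with both. With the correction, and with the block too, SESN1 was called at 0.28 and 0.29, and ZMAT3 at 0.43 and 0.42. Apart from the corrections' own offsets, the causes were not tested.

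With 1 library left out, counts ran from 1018 to 3931 over all genes, 1 to 4 over members, 4 to 17 over other direct p53 targets, 3 to 14 over p53 regulators, 0 to 5 over the cell cycle list, 1 to 3 over sestrins and GATOR, 2 to 6 over BTG/TOB with CCR4-NOT, 1 to 2 over the FAS pathway and 2 to 6 over the integrated stress response. Log2 ratios ran from −0.33 to −0.14 for MDM2, −0.28 to −0.20 for MDM4, 0.53 to 0.59 for AEN, 0.32 to 0.69 for FAS, 0.19 to 0.40 for SESN1, 0.12 to 0.43 for ZMAT3, 0.13 to 0.22 for BTG2, 0.43 to 0.87 for GDF15 and −0.57 to −0.29 for TP53INP1. Deviations from the group means in same-numbered libraries had correlations of −0.038, −0.054 and 0.098, against −0.113 to 0.144 in differently numbered ones. With 3 libraries per group, each centred on its group mean, these values cannot tell if the replicate numbers pair the libraries. The replicate block gave 2923 calls over all genes (2776 without it). GDF15 and FAS, with fewest counts, had the widest intervals.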
